A study of Arabidopsis thaliana with 30 samples.

Results

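The comparison set the combined H2A.X and H2A.W mutant (h2a.x/w-2, labelled XW_mutant) against the tsk mutant (tsk_mutant) in mock-treated Arabidopsis thaliana seedlings. It rests on 6 of the 30 libraries of the series, 3 of XW and 3 of tsk, chosen by genotype and treatment. The seedlings were 7 days old and carried the Columbia label. The groups used here were XW mock, tsk mock, and wild type Col mock as a background for both. XW and tsk under methyl methanesulfonate (MMS, a DNA-alkylating agent) were the matched treated groups, and Col under MMS served to define chromosome segments. The labels state neither the kind of allele in each mutant nor the dose or duration of MMS. The tissue field reads leaves, while the protocols speak of seedlings, and the 20 root markers examined were all measured.

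H2A.X and H2A.W are forms of histone H2A with their own tails. H2A.X is phosphorylated around DNA breaks, and H2A.W is a plant form that lies mainly in heterochromatin. TONSOKU (TSK) is a repair protein that acts at replication forks and is known to read histone tails of newly made chromatin, and the title of the series concerns its recruitment by H2A.X and H2A.W. A direct comparison of XW with tsk therefore asks in which genes the loss of the histone variants and the loss of TSK differ in seedlings without added damage.

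Levels are normalized counts, the reads of a gene scaled by its library's size factor, and fold changes are log2 differences, XW minus tsk, of normalized count + 1 with their standard error (SE). A gene was called at a Benjamini-Hochberg adjusted p under 0.05 in a limma model of all 30 libraries. Of 20256 genes tested, 3403 were called higher in XW than in tsk (16.8%) and 2618 lower (12.9%), 442 and 251 of them by at least 2-fold. Calls in either direction made up 29.7%. The 3 XW libraries lay above the 3 tsk libraries in 22.7% of tested genes and below them in 17.6%. With FPKM values in place of normalized counts the split was 2400 higher and 4018 lower. The median log2 fold change of all tested genes was 0.016 with the deposited scaling, 0.023 with TMM scaling and -0.041 with FPKM, so small differences can change sides with the scaling.

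XW replicate 1 lay apart from the other XW libraries. A chi-square of its reads against those of XW replicates 2 and 3, divided by the degrees of freedom, was 17.2 and 18.7. The same ratio was 2.48 between XW replicates 2 and 3, 2.88 to 4.11 within tsk and at most 8.34 within any other group. In XW replicate 1, 96 genes lay at least 2-fold above and 192 at least 2-fold below the mean of XW replicates 2 and 3. Without it, 2782 genes were called higher (13.7%) and 2066 lower (10.2%). Of the calls, 4209 were made in the same direction with and without this library, 0 in opposite directions, 1812 only with it and 639 only without it. Of the 693 calls of at least 2-fold, 639 were also made without it. Depth over the 20404 genes of the deposited tables was 20132497, 18021919 and 17850740 reads in XW and 16497306, 16188124 and 17897467 in tsk. The p-values rest on the spread between libraries of the same group, pooled over all 30 libraries. Nothing in the labels ties replicates to separate cultures, so that spread may be technical.

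The targeted genes were examined first. TSK (AT3G18730) stood at 167, 182 and 203 in XW, at 58.0, 56.6 and 45.0 in tsk and at 147, 160 and 159 in Col. The tsk libraries lay below the libraries of both other groups, and the log2 fold change was 1.78 (SE 0.14, adjusted p = 8.6e-11). HTA3 (AT1G54690), an H2A.X gene, stood at 649, 543 and 560 in XW against 855, 856 and 855 in tsk, and was lower in XW (log2 fold change -0.55, SE 0.08, adjusted p = 4.1e-06). Col stood at 632, 595 and 556, within the range of XW. Other genes overlap 62.3% of the exon bases of HTA3, and as the strand of the libraries is not given in the sources used here, their reads cannot be told apart from its own.

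The other H2A.X gene, HTA5, stood at 940, 936 and 874 in XW and at 1014, 992 and 1046 in tsk, and was not called (adjusted p = 0.17). Among H2A.W genes, HTA6 stood at 1037, 947 and 1032 in XW and 1218, 1150 and 1072 in tsk (adjusted p = 0.068). HTA7 stood at 467 in XW replicate 1 but at 794 and 896 in XW replicates 2 and 3, against 770, 714 and 719 in tsk. Its log2 fold change was -0.08 with all libraries and 0.20 without XW replicate 1 (adjusted p = 0.65 and 0.028). HTA12 was higher in XW, at 257, 172 and 171 against 141, 96.1 and 118 in tsk (log2 fold change 0.74, adjusted p = 0.00022, and 0.54 without XW replicate 1). Transcript levels near those of Col do not check the XW label, because the kind of allele is not given in the sources used here.

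Replication-type histones are the bulk of the chromatin made in S phase, and H2B is the partner with which each H2A form is folded and deposited. The H2B genes were higher in XW as a family. Of 10 H2B genes tested 10 were called higher, against 16.8% of all tested genes, and the median log2 fold change was 1.52 against 0.02 over all tested genes. Without XW replicate 1 the count was again 10 and the median 1.53. The same 10 genes had a median difference from Col of 1.33 in XW and -0.10 in tsk; both values rest on the same 3 Col libraries. The summed FPKM of the family was 393 to 441 in XW, 157 to 160 in tsk and 156 to 174 in Col. In bulk seedlings, more cells that express a gene and more RNA per cell cannot be told apart.

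AT3G53650, annotated as a histone superfamily protein (chromosome 3, 19889297 to 19890251, TAIR10.1 annotation), stood at 1010, 1312 and 1413 in XW, against 74.9, 77.9 and 88.0 in tsk and 65.9, 54.0 and 55.1 in Col. The XW libraries lay more than 10-fold above the others, and the log2 fold change was 3.93 (SE 0.15, adjusted p = 2.7e-17). AT3G09480 stood at 228, 262 and 307 in XW and 46.4, 41.6 and 39.1 in tsk (log2 fold change 2.61). AT2G37470 stood at 1390, 1301 and 1547 in XW and 310, 271 and 334 in tsk (2.21, adjusted p = 5.1e-16). These genes were low in tsk and in Col alike.

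The H2B genes with high levels in Col differed less. HTB11 stood at 3322, 2966 and 3272 in XW and 1115, 993 and 1057 in tsk, against 1313, 1179 and 1118 in Col (log2 fold change 1.59, SE 0.06, adjusted p = 1.1e-17). HTB1, HTB4, HTB2, HTB9 and AT2G28720 had log2 fold changes of 1.45, 1.25, 1.2, 1.18 and 0.99. XW and tsk libraries did not overlap in any of these genes. The coding sequences of the other 9 tested genes are 66.4 to 80.8% identical to that of HTB1, and no exonic stretch of 100 bases in the 10 genes occurs elsewhere in the TAIR10.1 genome.

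AT5G02570 had the largest log2 fold change of the family, at 124, 112 and 115 in XW against 4.22, 5.34 and 5.86 in tsk and 4.40, 6.47 and 4.69 in Col (4.27, SE 0.42, adjusted p = 4.2e-09). It lies on the minus strand wholly within exons of the targeted gene HTA12, which is on the plus strand, and HTA12 was itself higher in XW. The overlap takes up 34.7% of the exon bases of HTA12, which stood at 141, 96.1 and 118 in tsk and 139, 128 and 163 in Col. As the strand of the libraries is not given, how reads of the overlap were divided between the pair was not tested. In HTB9, 37.3% of the exon bases lie under other genes.

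**Figure D1:**
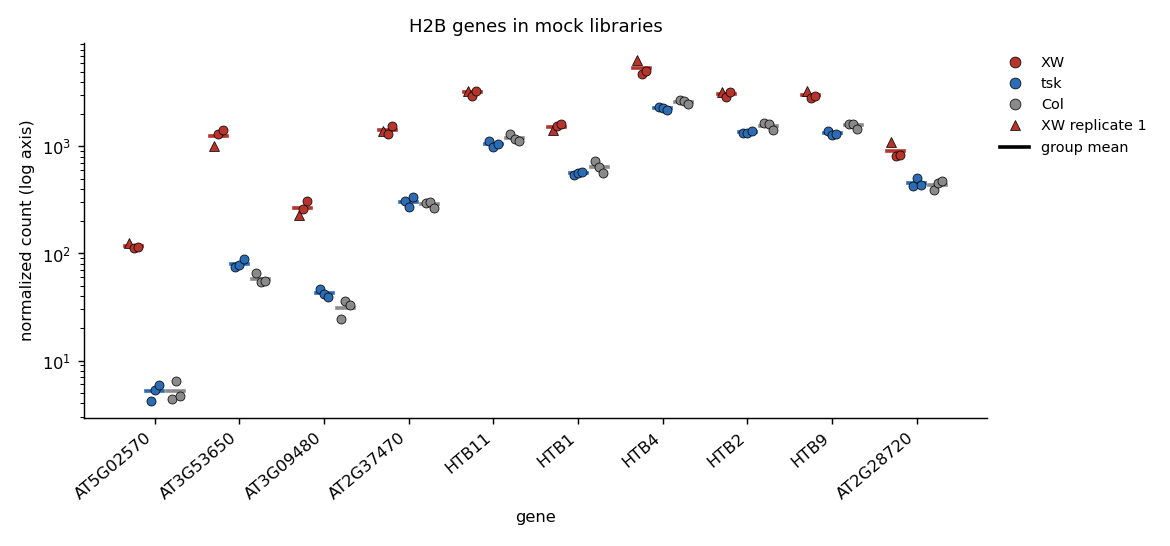
Normalized counts (log axis) of the 10 H2B genes in the 9 mock libraries, XW left, tsk in the middle and Col right, with a bar at each group mean and a triangle for XW replicate 1. In each gene the 3 XW libraries lie above the 3 tsk libraries, from AT5G02570 at 112 to 124 against 4.22 to 5.86 down to AT2G28720 at a log2 fold change of 0.99.

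Of the other H2A genes, 5 of 7 tested were called higher and 1 lower, with a median log2 fold change of 0.67 (5 and 1, and 0.68, without XW replicate 1). The shares over all tested genes, to be set beside these and the H3 and H4 counts below, were 16.8% higher and 12.9% lower. HTA2 stood at 1398, 1828 and 1900 in XW and 738, 742 and 802 in tsk (log2 fold change 1.15, adjusted p = 5e-13). HTA1 stood at 734, 628 and 642 in XW and 353, 320 and 330 in tsk (0.99), and HTA13 at 981, 1048 and 1220 against 575, 496 and 609 (0.95). These are replication-type H2A genes, and all 3 were higher in XW without overlap. Of the H2A.Z genes, which encode a form placed at transcribed genes, HTA8 was higher (0.67, adjusted p = 0.00045), HTA11 was lower (-0.71, adjusted p = 1.7e-05) and HTA9 was not called (-0.14, adjusted p = 0.19). HTA11 lies in a chromosome segment that is raised in tsk, described further on. HTA10, a replication-type gene, had a log2 fold change of 0.37.

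Of 9 H3 genes tested, 6 were called higher and 1 lower, with a median of 0.24 (6 and 0, and 0.18, without XW replicate 1). AT5G10400 stood at 1066, 1198 and 1228 in XW and 571, 521 and 643 in tsk (log2 fold change 1.01, SE 0.09, adjusted p = 1.7e-09). AT5G65360 and AT1G09200 followed with 0.60 and 0.52, and AT3G27360, a gene of low level, had 1.21 (adjusted p = 0.0015). AT5G10390 was lower (-0.37, adjusted p = 0.037), which was not called without XW replicate 1 (-0.13, adjusted p = 0.43).

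Of 8 H4 genes tested, 3 were called higher and 0 lower with a median of 0.11. Without XW replicate 1 the count was 5 and the median 0.35. The median log2 level of the 8 genes in that library minus XW replicates 2 and 3 was -0.63. AT3G46320, for instance, stood at 118, 326 and 332 in XW and 246, 288 and 268 in tsk. AT5G59690 was higher, at 1561, 2026 and 2132 in XW against 1286, 1179 and 1313 in tsk (log2 fold change 0.59, adjusted p = 1.1e-06), as were AT1G07820 (0.36) and HIS4 (0.41, adjusted p = 0.018). Up to 12.1% of the 100-base exonic stretches of an H4 gene occur elsewhere in the genome, so part of the reads may be shared between copies.

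The octamer CGCGGATC is a motif known from promoters of plant histone genes. It was searched on both strands (CGCGGATC and GATCCGCG) in the 250 bases before the annotated start of each tested gene. It occurs in 9 of 39 windows of the histone genes listed here, including 2 of 7 other H2A, 4 of 9 H3, 2 of 8 H4 and 0 of 10 H2B genes, and in 0.148% of the windows of all 20256 tested genes. Windows of members that were called higher are shown 5′ to 3′ from the TAIR10.1 genome, with the octamer in capitals, beside that of the H2B gene AT3G53650, which holds no exact match. A match is a description of letters and says nothing of binding.
HTA13 (chr3:7229140-7229389, plus strand): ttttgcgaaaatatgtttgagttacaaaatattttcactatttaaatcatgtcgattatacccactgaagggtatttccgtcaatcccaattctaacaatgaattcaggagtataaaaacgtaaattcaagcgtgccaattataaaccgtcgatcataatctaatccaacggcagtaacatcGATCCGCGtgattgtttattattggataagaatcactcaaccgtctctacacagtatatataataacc
AT5G10400, H3 (chr5:3270958-3271207, minus strand): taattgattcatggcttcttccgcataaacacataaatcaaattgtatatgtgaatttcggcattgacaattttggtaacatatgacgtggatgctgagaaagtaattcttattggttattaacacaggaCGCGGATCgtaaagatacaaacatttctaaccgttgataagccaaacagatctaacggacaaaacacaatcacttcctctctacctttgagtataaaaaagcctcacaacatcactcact
AT5G59690, H4 (chr5:24051224-24051473, plus strand): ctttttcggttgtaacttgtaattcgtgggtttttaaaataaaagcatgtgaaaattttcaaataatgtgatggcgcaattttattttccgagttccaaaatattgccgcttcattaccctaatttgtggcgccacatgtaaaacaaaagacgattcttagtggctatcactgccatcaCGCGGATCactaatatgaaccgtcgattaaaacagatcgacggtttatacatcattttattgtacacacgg
AT3G53650, H2B (chr3:19889047-19889296, plus strand): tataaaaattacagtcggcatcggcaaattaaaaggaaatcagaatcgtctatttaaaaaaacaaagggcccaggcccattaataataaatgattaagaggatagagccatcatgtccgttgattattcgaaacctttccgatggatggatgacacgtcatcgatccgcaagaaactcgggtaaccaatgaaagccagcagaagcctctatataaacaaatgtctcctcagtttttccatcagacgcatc

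The 3 genes printed with the octamer, chosen among those called higher, had log2 fold changes of 0.95 (HTA13), 1.01 (AT5G10400) and 0.59 (AT5G59690). The other 6 had 0.60 (AT5G65360), 0.52 (AT1G09200), 0.37 (HTA10), 0.24 (AT1G07660, not called), 0.06 (AT4G40040, not called) and -0.19 (HTA6, not called). AT3G53650, with no match, had 3.93.

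Salicylic acid is the hormone of defence against biotrophic pathogens, and its synthesis runs through ICS1 under the transcription factors SARD1 and CBP60G. Most of the tested genes listed for this pathway were higher in XW. The listed genes PR1, PR2, NIMIN1, WRKY38 and FMO1 are absent from the deposited tables and could not be tested. Of 16 tested members of the salicylic acid and immune list, 12 were called higher and 0 lower (11 and 0 without XW replicate 1), with a median log2 fold change of 0.99. All tested genes had 16.8% called higher and 12.9% lower. The list's median difference from Col was 0.94 in XW and 0.10 in tsk, again with shared Col libraries. With FPKM values 12 were called higher too, with a median of 0.451 on the log2(FPKM + 1) scale.

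Among the regulators, WRKY70, a transcription factor of salicylic acid responses, stood at 809, 678 and 824 in XW, 102, 95.0 and 133 in tsk and 40.3, 54.0 and 49.2 in Col. No XW library came near the other groups, and the log2 fold change was 2.81 (SE 0.16, adjusted p = 4.4e-14). SARD1 stood at 116, 106 and 148 in XW and 27.4, 25.6 and 26.4 in tsk (2.17), and CBP60G at 188, 322 and 331 against 105, 107 and 124 (1.27). NPR1, a salicylic acid receptor, was 727, 724 and 713 in XW and 512, 523 and 572 in tsk, a small difference with a narrow spread (0.43, adjusted p = 1.3e-06).

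Of the enzymes, ICS1 stood at 349, 282 and 354 in XW and 204, 217 and 216 in tsk (log2 fold change 0.62, adjusted p = 0.0004). PBS3, which conjugates isochorismate, and ALD1, of pipecolic acid synthesis, had 1.42 and 1.47 at low levels. At the cell surface, the wall-associated kinase WAK1 stood at 442, 485 and 690 in XW and 129, 110 and 102 in tsk (2.22, adjusted p = 1.5e-07), and the membrane protein gene ACD6 had 1.45. EDS1, an immune hub, was higher (0.70), as was its partner SAG101 (0.42, and 0.30 with adjusted p = 0.052 without XW replicate 1). The third partner, PAD4, was not called (0.09, adjusted p = 0.70) and lies in a segment raised in tsk.

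Touch, wounding and jasmonate switch on a set of transcription factors within minutes, among them ERF, WRKY and ZAT genes, and calmodulin-like TCH genes. Of 28 tested members of the jasmonate, touch and wound list, 16 were called higher and 0 lower (14 and 0 without XW replicate 1), with a median of 0.61 (0.348 with FPKM values). The shares over all tested genes were 16.8% higher and 12.9% lower. WRKY40 stood at 491, 519 and 682 in XW against 33.7, 48.0 and 61.6 in tsk and 34.4, 54.0 and 31.7 in Col (log2 fold change 3.56, SE 0.25, adjusted p = 2.6e-12). WRKY33 stood at 2010, 1745 and 2331 in XW and 353, 370 and 400 in tsk (2.43), and ERF5 at 531, 507 and 622 against 98.0, 103 and 125 (2.34). In these genes tsk lay near Col and XW far above both.

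ORA47, ERF6, ZAT10 and ZAT12 had log2 fold changes of 2.90, 2.67, 2.66 and 1.88. TCH4, a cell wall xyloglucan enzyme, stood at 3439, 3511 and 3973 in XW and 502, 703 and 671 in tsk (2.55, adjusted p = 2.1e-12). The calmodulin-like genes TCH3 and TCH2 had 1.95 and 1.51, and the cold factor CBF2 had 1.48. Of the JAZ repressors, JAZ9 was higher (0.58, adjusted p = 0.00012), and the storage protein gene VSP2, a late jasmonate marker, was not called (0.64, adjusted p = 0.064).

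The rapid stress response element CGCGTT is a short motif known from early touch and wound genes. On both strands (CGCGTT and AACGCG, which can overlap each other) it occurs in 4 of 28 upstream windows of this list and in 2.77% of those of all tested genes. Of the 16 members called higher, 3 hold it, among them TCH2 and CBF2, and a further holder was not called (0.41, adjusted p = 0.058). WRKY40, ORA47, ERF6, ZAT10, TCH4, WRKY33 and ERF5, with larger log2 fold changes than TCH2, hold no match. TCH2 was printed because it holds the most, 4 matches in overlapping pairs on opposite strands. They are shown in capitals in its 250 bases before the annotated start.
TCH2 (chr5:14999620-14999869, minus strand): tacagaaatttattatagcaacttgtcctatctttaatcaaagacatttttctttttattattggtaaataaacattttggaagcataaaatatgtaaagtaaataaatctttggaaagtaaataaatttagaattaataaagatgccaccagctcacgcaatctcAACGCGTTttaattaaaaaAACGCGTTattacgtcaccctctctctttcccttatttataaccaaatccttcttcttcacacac

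Outside the lists, the largest rises included DIC2, a mitochondrial dicarboxylate carrier, at 1184, 1185 and 1701 in XW and 80.1, 141 and 113 in tsk (log2 fold change 3.61, adjusted p = 1.6e-14). AT5G51190, an ERF-type factor, stood at 1139, 872 and 869 in XW and 58.0, 83.3 and 114 in tsk (3.52), but its exons lie wholly under AT5G51180 on the other strand. AT5G51180 itself was not called (-0.04, adjusted p = 0.75). AT5G24240, annotated as a phosphatidylinositol 4-kinase gamma-like protein, stood at 462, 616 and 656 in XW, 35.8, 38.4 and 36.2 in tsk and 79.8, 114 and 125 in Col (3.92), so that XW lay above and tsk below Col. The receptor-like protein genes RLP41 and RLP23 had 3.18 each, and the uncharacterized genes AT1G35210 and AT3G01345 had 3.61 and 3.20.

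Under MMS the difference between XW and tsk took another form in these families. For the H2B genes the median log2 fold change was 2.2 under MMS against 1.52 without, and 5 of 10 had a called positive difference of differences, where 4.21% of all tested genes had one. For the jasmonate, touch and wound list the median was 0.12 under MMS against 0.61 without, and 13 of 28 had a called negative difference of differences, where 5.26% of all tested genes had one. The salicylic acid and immune list had a median of 0.62 under MMS against 0.99, with 1 positive and 4 negative.

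WRKY40 stood at 1159, 982 and 964 in XW under MMS and 698, 608 and 919 in tsk under MMS (log2 fold change 0.50, adjusted p = 0.13). TCH4 stood at 4299, 3243 and 4482 in XW under MMS and 3604, 4363 and 4549 in tsk under MMS (-0.06). The XW and tsk libraries under MMS did not overlap in WRKY40 and overlapped in TCH4, while in mock neither gene's groups overlapped. AT3G53650 went the other way, at 1438, 1372 and 1443 in XW under MMS and 28.8, 38.0 and 43.6 in tsk under MMS (5.25, adjusted p = 1.7e-20).

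**Figure D2:**
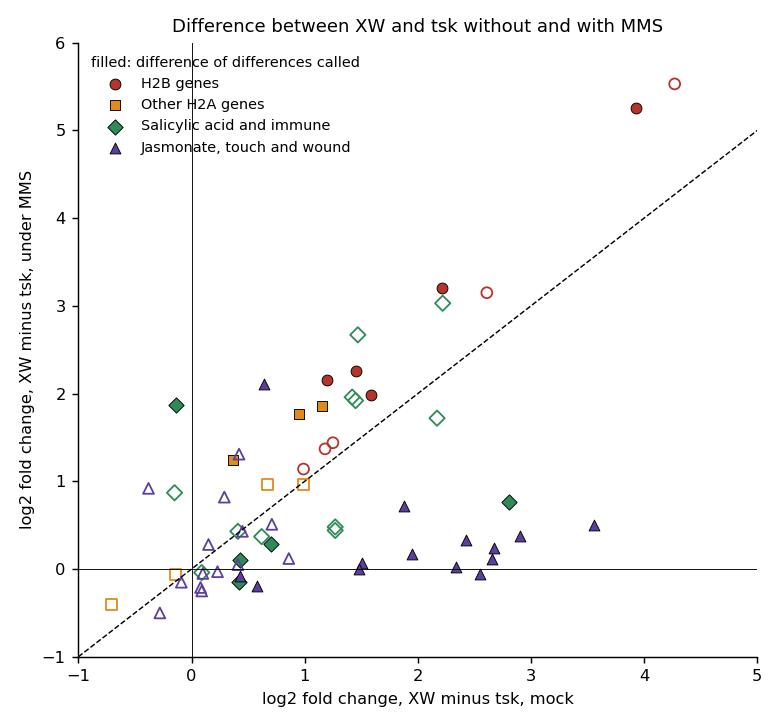
Log2 fold change of XW minus tsk without MMS (x axis) and under MMS (y axis) for members of the H2B, other H2A, salicylic acid and immune, and jasmonate, touch and wound lists. Filled symbols mark a called difference of differences, open symbols none, and the dashed line marks equal values. H2B genes lie above the line, up to 5.53 against 4.27, and of the jasmonate, touch and wound genes WRKY40 lies at 0.50 under MMS against 3.56 without, ZAT12 at 0.72 against 1.88 and TCH4 at -0.06 against 2.55.

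The DNA damage response is driven in plants by the kinases ATM and ATR and the transcription factor SOG1, whose targets include cell cycle inhibitors of the SIAMESE-related family and repair genes. Members of this list stood lower in XW than in tsk. Of 25 tested, 8 were called lower and 0 higher (5 and 0 without XW replicate 1), against 12.9% lower over all tested genes, with a median log2 fold change of -0.12. The median difference from Col was 0.33 in XW and 0.76 in tsk.

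The inhibitor gene SMR5 stood at 23.8, 27.3 and 22.5 in XW, 66.4, 63.0 and 55.7 in tsk and 8.79, 5.40 and 11.7 in Col (log2 fold change -1.30, adjusted p = 0.0044). RAD17, a checkpoint gene, stood at 179, 191 and 223 in XW, 265, 275 and 271 in tsk and 79.8, 84.2 and 91.5 in Col (-0.46, adjusted p = 0.0016). The cyclin CYCB1-1 had -0.41 (adjusted p = 0.016), and XRI1 had -0.27 (adjusted p = 0.043, and 0.056 without XW replicate 1). In SMR5 and RAD17, XW lay between tsk and Col.

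Other members of the same list were not called: GMI1 (-0.09), the ribonucleotide reductase gene TSO2 (-0.11), NAC044 (-0.21) and SMR7 (-0.41, adjusted p = 0.32). GMI1, for instance, stood at 615, 612 and 725 in XW and 704, 653 and 719 in tsk, with overlapping libraries. AT4G32700, annotated as a MUS308-type DNA polymerase, was lower, at 219, 279 and 249 in XW against 451, 425 and 457 in tsk (-0.84, adjusted p = 8.4e-09), and lies in a segment raised in tsk. KU70, of end joining, had -0.34 (adjusted p = 0.0013).

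Of 24 recombination and fork repair genes 2 were called higher and 5 lower (1 and 2 without XW replicate 1). Over all tested genes the shares were 16.8% higher and 12.9% lower, and 13.7% and 10.2% without that library. RAD50, of the break-processing complex, stood at 580, 745 and 731 in XW and 885, 884 and 884 in tsk (log2 fold change -0.38, adjusted p = 0.00011). The helicase gene RECQ4A had -0.37 (adjusted p = 0.00038), and AT1G79950, annotated as a RAD3-like helicase, had -0.26 (adjusted p = 0.0054) but -0.15 without XW replicate 1 (adjusted p = 0.076).

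Of 24 S phase genes, 3 were called higher and 0 lower, but 2 and 3 with FPKM values, no larger a share than the 16.8% higher over all tested genes. AT5G63960, the catalytic subunit of DNA polymerase delta, stood at 427, 490 and 445 in XW and 366, 353 and 339 in tsk (0.36, adjusted p = 0.00011). The replication factor CDC45 and the helicase subunit MCM7 had 0.42 (adjusted p = 0.02, and 0.067 without XW replicate 1) and 0.23 (adjusted p = 0.022). Of 23 G2/M genes 1 was higher (CYCB1-2, 0.34, adjusted p = 0.037, and 0.14 without XW replicate 1) and 3 lower, against 0 and 2 without XW replicate 1 and 0 and 5 with FPKM values. CDKB1-1 had the largest of these falls, at 160, 159 and 148 in XW against 335, 274 and 292 in tsk (-0.94, adjusted p = 1.3e-05), and lies in a segment raised in tsk, and CYCB2-3 had -0.45 (adjusted p = 0.034). Over all tested genes 12.9% were called lower.

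Part of the genes that were lower in XW lay in runs of neighbours. Under MMS, 8 segments of 15 or more tested genes had a running median, over 31 genes, more than 0.4 above the genome's median in tsk minus Col. In mock libraries, which took no part in that choice, these 8 segments together span 2160 kb and hold 431 tested genes (2.13%). Of these, 335 were called lower and 6 higher in XW than in tsk, and the 335 make up 12.8% of all genes called lower. Without XW replicate 1, 326 were called lower. Of the 251 falls of at least 2-fold, 94 lay there. The median log2 fold change was -0.70 inside the segments and 0.02 outside.

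The segments differed in size and height. Segment 6, on chromosome 4 from 15295138 to 15811926 (TAIR10.1), holds 102 tested genes, 96 of them called lower, with a median of -0.97. There the median level minus Col was -0.03, -0.04 and -0.05 in the XW libraries and 0.94, 0.94 and 0.95 in the tsk libraries. Segment 5, on chromosome 3 from 19989292 to 20264686, had 63 of 64 genes called lower, and segment 4, from 19383266 to 19520596 on the same chromosome, 33 of 35. In these and in segment 3 the median of tsk over Col was 0.91 to 0.99 on the log2 scale.

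In the other 4 segments the median of tsk over Col was 0.31 to 0.62, and across the 8 segments that of XW over Col was -0.08 to 0.12. No segment that was raised or lowered in XW under MMS, or lowered in tsk, was found by the same rule. The XW and tsk libraries did not overlap in their medians in any segment. Whether the DNA of these segments differs in copy number was not tested.

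**Figure D3:**
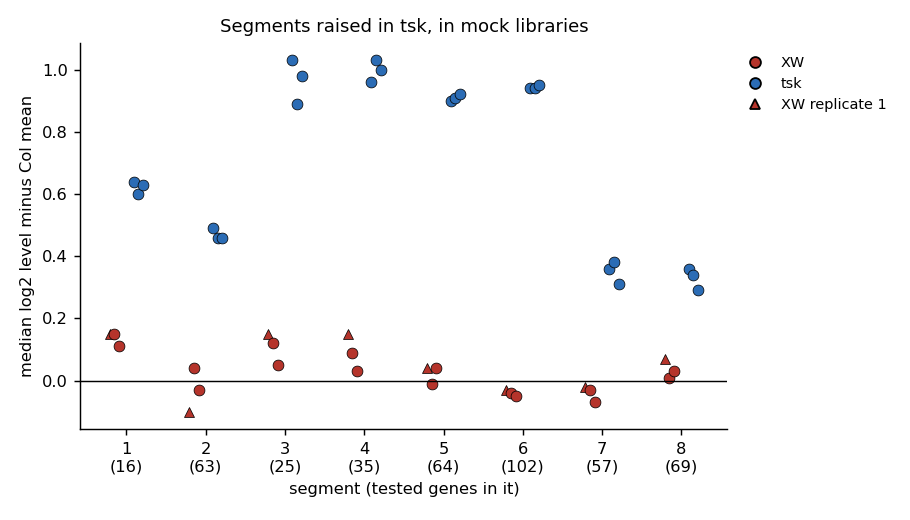
Median log2 level minus the Col mean over the tested genes of each of 8 segments in mock libraries, with XW left of tsk and a triangle for XW replicate 1. The XW libraries lie near 0 and the tsk libraries between 0.29 and 1.03.

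The root regulator SCR (-0.71), the clock gene LNK2 (-0.82), the H2A.Z gene HTA11, the chromatin remodeller gene DDM1 (-0.49, adjusted p = 0.0023) and AT3G44790 (-2.19) lie in such segments. RAD17 and the dehydrin gene RAB18 lie between segment 7 (chromosome 5, ending at 26414609) and segment 8 (starting at 26547227). The median of tsk over Col was 0.37 and 0.31 in these segments, while RAD17 had 1.66 and RAB18 1.76. Whether the falls of RAD17 and RAB18 belong to those runs of raised genes was not tested.

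Outside the segments, p-values readjusted over the remaining genes gave 3366 genes higher and 2256 lower. FLC, a repressor of flowering, stood at 37.5, 30.3 and 23.5 in XW, 264, 322 and 266 in tsk and 157, 146 and 159 in Col. XW lay below Col and tsk above it (log2 fold change -3.20, SE 0.25, adjusted p = 3.2e-11). Its relatives MAF4, at 53.0, 50.5 and 53.2 in XW against 161, 144 and 150 in tsk (-1.52), and MAF5 (-1.73, adjusted p = 1.6e-07) were lower too. An antisense gene covers 68.1% of the exon bases of FLC, and reads of the pair cannot be told apart here.

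Of the genes that FLC is known to repress, SOC1 was higher, at 555, 502 and 530 in XW against 218, 233 and 223 in tsk and 308, 289 and 273 in Col (1.23, adjusted p = 6.1e-10). FT had 1.21 at low levels (adjusted p = 0.047, and 0.15 without XW replicate 1). SVP, a further repressor, was higher (0.41, adjusted p = 3e-05). In all, 3 of the 13 tested genes of the FLC and flowering list were called higher and 3 lower (2 and 3 without XW replicate 1). Over all tested genes 16.8% were called higher and 12.9% lower. FLC kept its difference under MMS, at 39.9, 20.5 and 40.3 in XW and 277, 272 and 281 in tsk (-3.07).

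VIM proteins bind methylated DNA and help to copy CG methylation at replication. VIM5 stood at 15.5, 10.1 and 8.18 in XW, 82.2, 92.9 and 103 in tsk and 7.32, 6.47 and 9.38 in Col (log2 fold change -2.97, SE 0.38, adjusted p = 5e-07), so that tsk alone was high. VIM1 had -0.45 (adjusted p = 0.00026). Both VIM genes lie just past the end of segment 2 (chromosome 1, 20987128 to 21405956). VIM5 starts at 21408623 and VIM1 at 21413981. The median of tsk over Col was 0.47 in that segment, while VIM1 had 0.70 and VIM5 3.43. Whether their falls belong to that run of raised genes was not tested. The small RNA enzyme gene DCL3 had -0.54. Of 28 tested genes of DNA methylation and silencing, 6 were called lower and 1, SUVH6 (0.23, adjusted p = 0.023), higher (4 and 1 without XW replicate 1), and 11 and 0 with FPKM values. The shares over all tested genes, with normalized counts, were 12.9% lower and 16.8% higher.

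HISN6B, a histidine synthesis gene, had the largest fall, at 3.66, 5.05 and 2.05 in XW, 124, 129 and 126 in tsk and 7.32, 9.71 and 3.52 in Col (-4.85, SE 0.62, adjusted p = 5e-07). Of its 100-base exonic stretches, 75.9% occur elsewhere in the genome. Its near copy HPA1 (AT5G10330) stood at 455 ± 155 in XW and 316 ± 18.4 in tsk (SD, n = 3) and was not called (0.48, adjusted p = 0.083). Reads may be split between these genes, so the values of both are uncertain.

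AT4G19191, a tetratricopeptide repeat-like gene, stood at 31.1, 47.5 and 25.6 in XW, 424, 476 and 431 in tsk and 24.9, 39.9 and 34.0 in Col (-3.68). AT5G03090, AT4G06701, PAB5, AT5G56810 and AT2G29370 followed with -2.49 to -2.15. In PAB5, a poly(A)-binding protein gene, tsk stood at 47.4, 37.4 and 54.7, while XW (13.7, 10.1 and 6.14) and Col (5.13, 3.24 and 4.69) were low.

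**Figure D4:**
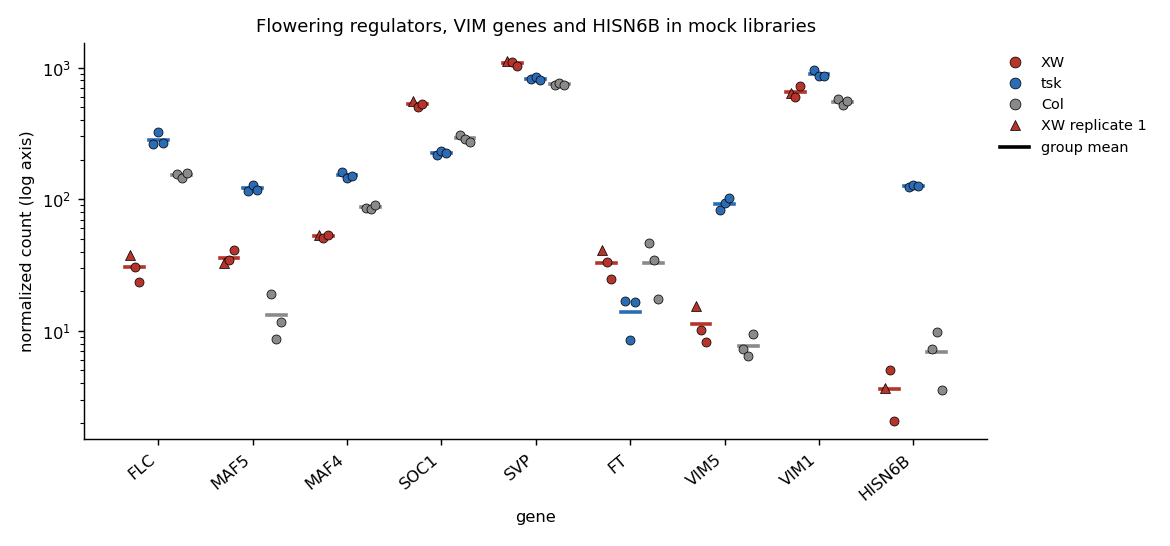
Normalized counts (log axis) of flowering regulators, VIM1, VIM5 and HISN6B in the mock libraries, XW left, tsk in the middle and Col right, with a bar at each group mean and a triangle for XW replicate 1. FLC lies at 23.5 to 37.5 in XW and 264 to 322 in tsk, and VIM5 and HISN6B are high in tsk while XW and Col are low.

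Of 21 oxidative and xenobiotic stress genes, 10 were called higher and 2 lower (11 and 0 without XW replicate 1). The shares over all tested genes were 16.8% and 12.9%. The conjugating enzyme genes GSTF8 and UGT74E2 had 0.69 and 1.37, OPR1 had 0.92 and the cytochrome CYP81D8 had 1.13. UGT74E2 stood at 214, 183 and 205 in XW against 100.1, 55.5 and 82.1 in tsk and 201, 215 and 209 in Col, so that tsk was the low group. The ferritin gene FER1 stood at 4147 in XW replicate 1, apart from 2102 and 2048 in XW replicates 2 and 3, and its log2 fold change was 0.78 with and 0.45 without that library.

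Of 15 heat shock and folding genes, 5 were called higher and 0 lower (6 and 0 without XW replicate 1, 2 and 0 with FPKM values). All tested genes had shares of 16.8% and 12.9% with normalized counts. The heat shock factor gene HSFB2A stood at 555, 532 and 536 in XW and 161, 137 and 151 in tsk (1.85, adjusted p = 6.5e-14). HSP90.1 had 0.41 (adjusted p = 0.02) and the endoplasmic reticulum chaperone BIP3 had 1.39 at low levels (adjusted p = 0.0055).

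Of 17 cold and abscisic acid genes, 4 were higher and 2 lower (5 and 1 without XW replicate 1), near the shares of 16.8% and 12.9% over all tested genes. NCED3, the rate-limiting gene of abscisic acid synthesis, and the NAC factor RD26 were higher (1.43 and 1.23), while the dehydrin RAB18, at 701, 850 and 908 in XW against 1694, 1921 and 2000 in tsk, and RD29B were lower (-1.19 and -0.63), RD29B with an adjusted p of 0.023, and 0.075 without XW replicate 1. Of 9 tested genes of the seed and late embryogenesis list 2 were called lower (1 without XW replicate 1, 5 with FPKM values). These were ABI5 (-0.56, adjusted p = 0.0016) and PER1 (-0.56, adjusted p = 0.024, and 0.057 without XW replicate 1). The summed FPKM of the list was 26.3 to 34.9 in XW, 38.8 to 65.7 in tsk and 11.6 to 13.1 in Col.

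Of 25 expansin and XTH wall genes, 7 were higher and 3 lower (4 and 1 without XW replicate 1). The shares over all tested genes were 16.8% and 12.9%, and 13.7% and 10.2% without that library. EXPB3 (1.03), XTH23 (1.14) and XTH15 (0.43) were among those higher, and the polygalacturonase PGAZAT was lower (-1.31, adjusted p = 0.0058). Of 19 clock genes 3 were higher and 3 lower, near the shares over all tested genes. RVE1 was higher (0.83, adjusted p = 2.1e-07) and PRR3 lower (-0.51, adjusted p = 1.6e-05). Of 17 glucosinolate genes 2 were lower, a share below that of 12.9% over all tested genes. They were BCAT3 (-0.19, adjusted p = 0.015, and 0.086 without XW replicate 1) and the regulator MYB28 (-0.31, adjusted p = 0.045). Of 9 flavonoid genes 1 was lower, TT19 (-1.04, adjusted p = 0.0094).

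Markers of tissues and organs bear on how alike the seedlings were. Of 24 leaf photosynthesis genes 9 were called higher and 0 lower, but 6 and 2 without XW replicate 1 and 4 and 3 with FPKM values. The shares over all tested genes were 16.8% and 12.9%, and 13.7% and 10.2% without XW replicate 1. RBCS3B, PSAL and PSAF had log2 fold changes of 0.37, 0.35 and 0.35, and 0.22, 0.18 and 0.19 without that library, where none was called (adjusted p = 0.053, 0.074 and 0.11). Their list's summed FPKM was 41420 to 45480 in XW, 37610 to 42060 in tsk and 42980 to 45090 in Col.

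Of 20 root markers 2 were higher and 2 lower (0 and 2 without XW replicate 1). With all libraries these shares were below the 16.8% and 12.9% over all tested genes. The summed FPKM of the root markers was 141 to 150 in XW, 161 to 167 in tsk and 155 to 166 in Col. WOX5, a marker of the root stem cell centre, stood at 7.31, 4.04 and 3.07 in XW, 27.4, 21.4 and 27.4 in tsk and 12.5, 10.8 and 10.6 in Col (-2.24, adjusted p = 2.5e-06). CASP5, of the root endodermis, had 0.87 (adjusted p = 0.03, and 0.18 without XW replicate 1). Of 10 shoot meristem genes 1, PDF1 (0.29, adjusted p = 0.037, and 0.26 without XW replicate 1), was higher and 2 were lower, ATML1 (-0.26, adjusted p = 7.3e-05) and CUC1 (-1.59, adjusted p = 0.003). Listed genes that are not in the deposited tables, among them several shoot meristem, seed storage and immune genes, were not analysed here. Every gene in the tables, listed or not, had reads in each of the 30 libraries. Genes without reads in some library are thus missing from the tables, from the counts of calls and from the largest rises and falls. The part of organ proportions in the differences was not tested.

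**Figure D5:**
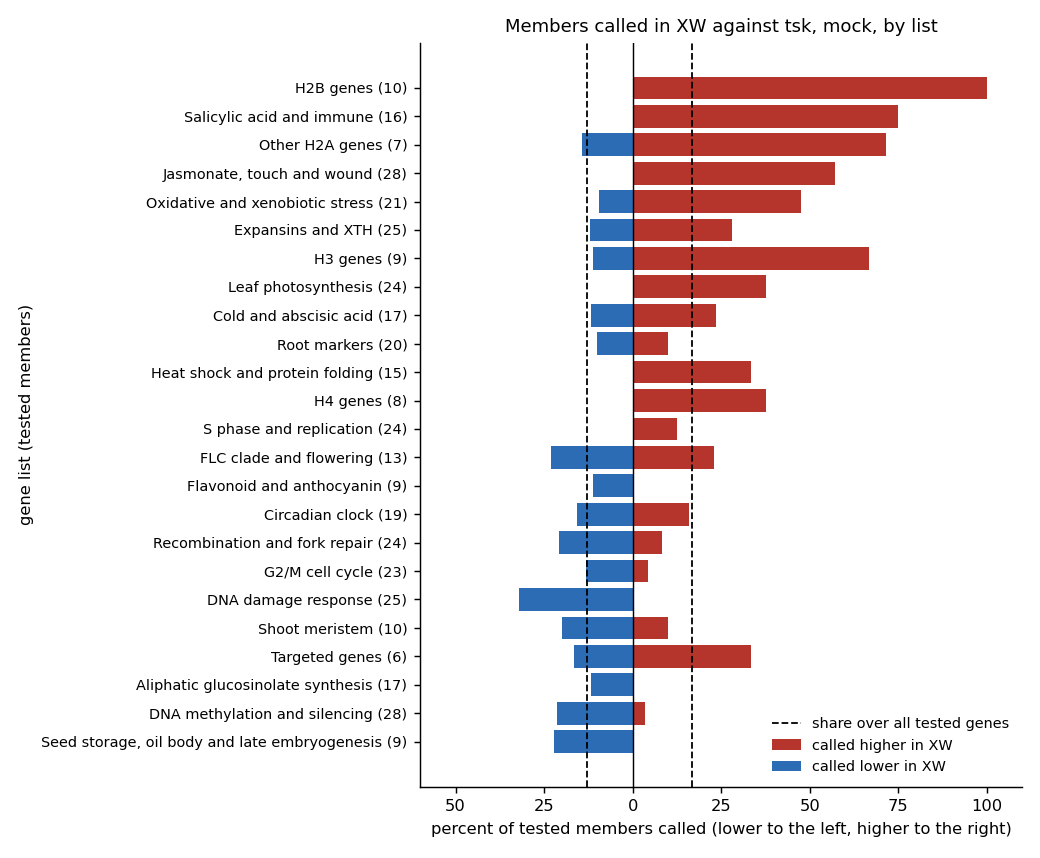
Percent of tested members of each of 24 gene lists called higher (to the right) or lower (to the left) in XW than in tsk, mock, ordered by median log2 fold change with tested members in parentheses. Dashed lines mark the shares over all tested genes, 16.8% higher and 12.9% lower, and the H2B genes reach 100%.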

How the data were processed

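RNA was sequenced from 30 libraries (10 groups of 3) as paired-end reads. The submitters' processing notes name STAR, DESeq2 1.30.1 and TAIR10. The deposited signal is the normalized count (reads over a size factor), and a further deposited table holds FPKM. Dividing normalized counts by the smallest value in their library gave whole numbers for 100% of values (within 0.01), taken as reads per gene.

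Both tables hold 20404 genes, which all matched the TAIR10.1 annotation, the source of symbols and positions. A gene entered the tests when 3 or more libraries reached 10 normalized counts (148 removed). limma 3.58.1 (R 4.3.3) with trended empirical Bayes was fitted to log2(normalized count + 1), with a coefficient per group over all 30 libraries (20 residual degrees of freedom) and Benjamini-Hochberg adjustment over all tested genes. The difference of differences is XW minus tsk under MMS minus XW minus tsk without MMS. The procedure was tested on simulated data. Alternatives were edgeR 4.0.16 and DESeq2 1.42.0 on recovered reads, FPKM, other pseudocounts, filters and models, a replicate block, and leaving out each library.

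The members and the 24 gene lists (459 genes, 407 tested) were chosen with earlier results of these data known, so list counts are descriptions and no set test was made. The text names the targeted genes, in each list up to 3 called members of lowest adjusted p, and the 10 largest rises and 10 largest falls that were called, averaged 1 CPM or more and had no overlap between groups. Further list members were named by role after their values were seen. Segments were defined in MMS libraries and described in mock libraries. Upstream windows, exonic stretches and coding identities (Biopython 1.88, global alignment) were read from the TAIR10.1 genome. How multiply mapping reads were counted is not given in the sources used here.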

Additional observations from a re-analysis of the deposited data

Results flagged for a closer look

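Of the genes named above, 47 had a called difference of differences between MMS and mock, 23 positive and 24 negative, by the interaction term of the same limma model, where 4.21% of all tested genes were called positive and 5.26% negative. Many of the named genes were picked for a large mock difference, which enters this term, so nothing is read from the count. A positive value means that XW minus tsk was higher under MMS than without it.

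Of the targeted genes, HTA6 had 1.44, HTA3 0.44 and HTA5 0.41. HTA6 stood at 895, 1007 and 865 in XW under MMS and 385, 399 and 374 in tsk under MMS, where the mock groups had not been called. Of the H2B genes, AT3G53650 had 1.32, AT2G37470 1.00, HTB2 0.95, HTB1 0.81 and HTB11 0.39. Of the other H2A genes, HTA10 had 0.87, HTA13 0.82 and HTA2 0.70. Of the H3 genes, AT5G10390 had 0.97, AT5G65360 0.83, AT5G10400 0.82 and AT1G09200 0.68, and of the H4 genes, AT5G59690 had 0.58 and AT1G07820 0.29.

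Of the early touch and wound genes, WRKY40 had -3.06, TCH4 -2.62, ZAT10 -2.55, ORA47 -2.52, ERF6 -2.43, ERF5 -2.32, WRKY33 -2.10, TCH3 -1.78, CBF2 -1.48, TCH2 -1.44, ZAT12 -1.16 and JAZ9 -0.77, while VSP2 had 1.47. Of the immune genes, WRKY70 had -2.05, SAG101 -0.57, EDS1 -0.41 and NPR1 -0.33.

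Among the largest rises, DIC2 had -3.27, AT5G51190 -3.22, AT1G35210 -2.52 and AT5G24240 1.76. Of the remaining genes, NCED3 had -1.39, RVE1 -1.22, HSFB2A -1.01, RD26 -0.99 and SVP -0.51, and WOX5 had 1.43, TSO2 0.81, RAB18 0.76 and CYCB1-1 0.70. HSFB2A went against its list, as 6 of the 15 tested heat shock and folding genes were called positive and 1 negative. The median log2 fold change of that list was 0.84 under MMS against 0.11 without.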

How the results depend on the processing

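Of 124 called genes named in the text, 97 were called in the same direction under each of the 18 alternatives that gave a value. The count of genes called lower was 2618 with all libraries in the model, 1631 in a model of the 6 compared libraries alone (2348 higher) and 4018 with FPKM (2400 higher). The cause was not tested beyond the fewer samples of the smaller model. With edgeR and TMM the counts were 3747 and 2593, and with a replicate block 3350 higher and 2539 lower. Replicate numbers did not pair the libraries, since deviations of same-numbered libraries had correlations of 0.02, 0.03 and 0.02, and the block changed no call among the named genes. Leaving out 1 library gave 2691 to 3318 genes higher and 1986 to 2672 lower, and 595 to 1005 positive and 871 to 1059 negative differences of differences.

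The direction turned in 6 genes that were not called, among them AT4G40040 with FPKM (-0.02). Leaving out 1 library gave log2 fold changes of -0.27 to 0.20 in HTA7, -0.24 to 0.01 in HTA9, -0.44 to 0.30 in AT3G46320 and -0.55 to 0.20 in AT3G45930, positive without XW replicate 1, and -0.06 to 0.18 in PAD4, negative without XW replicate 3. Estimated library weights gave 0.14 in HTA7, 0.21 in AT3G46320 and 0.11 in AT3G45930. XW replicate 1 had a weight of 0.17, against 1.73 and 1.1 for XW replicates 2 and 3.

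With 3 libraries a group, calls in small differences rest on a spread pooled over all groups. Genes with 10 normalized counts in fewer than 3 libraries, and genes that are not in the deposited tables, are not analysed here. The latter include any gene without reads in some library, so genes silent in a group could not be called. Fold changes against groups below 10, as in AT5G02570 and HISN6B, depend on the pseudocount.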
